A study of Drosophila melanogaster with 32 samples.

Results

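The genes described here are 8 Drosophila melanogaster genes that work in the male germ line: aly, comr, can, sa, fzo, dj, djl and sunz. They were chosen by symbol, and each matched 1 probe set of the array, so that 8 of the 18769 probe sets that represent genes were followed. Whole bodies of 42 day old flies (6 weeks) were measured on 32 arrays, 2 for each sex of 7 insertion lines and their control. Each of the 7 lines is homozygous for a single P{GT1} gene-trap element in the Canton S F co-isogenic background, made in w1118 flies, and each was chosen by the study for a longer life span in at least one sex. The lines carry insertions at crol (BG00346), mub (BG00043), pyd (BG00028), esg (BG01042), CG10990 (BG00495) and CG9238 (BG00761), and the last, BG00817, has an insertion that the study placed only to a band of chromosome arm 3R, without its exact site. The control was Canton S F without an insertion. Flies were collected as virgins, kept with their own sex, and pooled by sex for RNA. A line is a single insertion, so the effects of the element, of its site and of anything else fixed in that stock cannot be told apart.

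Spermatogenesis in Drosophila depends on a burst of transcription in primary spermatocytes, before the meiotic divisions. A testis-specific complex, tMAC, which includes Aly (always early) and Comr (cookie monster), and a set of testis-specific relatives of the general TBP-associated factors, the tTAFs, which include Can (cannonball, a relative of Taf5) and Sa (spermatocyte arrest, a relative of Taf8), are needed for that programme, and their mutants stop before meiosis. Among the products made for later stages are Fzo (fuzzy onions), a GTPase that fuses the mitochondria of the early spermatid, and Dj (don juan), a protein of the sperm tail. djl (don juan like) lies next to dj. sunz (sungrazer) belongs to the few genes transcribed after meiosis, whose RNA gathers at one end of the elongating spermatid. By the RefSeq gene table, dj, djl, sunz and fzo lie on chromosome arm 3R, can, sa and aly on 3L and comr on 2R.

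The signal is the MAS5 value of a probe set, on a linear scale that the authors set so that the mean of an array, after trimming, is 500. Signals under 50 were treated as having no order. A probe set entered the tests when the lower of the 2 replicate signals was at least 50 in at least 1 of the 16 groups of line and sex, and 12518 probe sets did. Of the 8 genes, 6 did. dj, djl, sunz and sa passed in all 8 male groups and in no female group, can in 5 male groups and fzo in 8 male groups and 1 female group. The genes therefore entered the tests through males, and no count over the 6 is a measure of how many testis genes are expressed. aly stayed under 50 on all 32 arrays, and comr reached it on 1 array.

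The insertion genes were checked first in males of their own line. Pdcd4, the present symbol of CG10990, fell by 2.05 on the log2 scale (limma, adjusted p = 0.00188), and 1 of 2 mub probe sets fell by 0.75 (adjusted p = 0.0342). Gbs-70E, the present symbol of CG9238, differed by -0.65 (adjusted p = 0.0818), the 4 pyd probe sets by -0.26 to -0.39 (lowest adjusted p = 0.0570) and esg by -0.10 (adjusted p = 0.923), and crol had no probe set of its own symbol alone. Replicate arrays correlated at 0.964 to 0.985 on the log2 scale. The array median was 117 to 143 in males and 49.2 to 72.3 in females. Labels of sex and tissue fitted the markers. ocn (ocnus), an abundant testis protein, ranged over 3720 to 8599 in males and reached at most 22.0 in females, and the germ plasm gene osk ranged over 2.32 to 31.1 in males and 4216 to 6346 in females. The yolk protein gene Yp1, by contrast, stood at 1575 and 692 in control males and reached at most 393 in males of the other lines. Each line was set against the same 2 control male arrays, so the comparisons with the control are not independent of each other.

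The sexes differed widely. All 6 tested genes were higher in males than in females (limma contrast averaged over the 8 lines, called at 0.001), where 46.2% of all tested probe sets were. Since the genes passed the filter almost only through males, this direction was largely fixed by the filter and is a description. With quantile scaling 5 of the 6 were called, and can was not (0.98 on the log2 scale, adjusted p = 0.0325). For 5 of the 6 the lowest male array lay above the highest female array, while for can both lay under 50 and had no order. In the male arrays djl ranged from 310 through a median of 662 to 1185, against 0.480, 5.47 and 15.4 in females, which makes it at least 13.2-fold higher in males when every female signal is raised to 50. dj ranged from 74.0 through 172 to 1500 in males, against 0.338, 0.961 and 7.58 in females, with a bound of 4.04-fold. For fzo the male range was 130 to 333 with a median of 204, and the females, at 22.9 to 59.7 with a median of 31.5, reached 50 on 6 of 16 arrays, so that the bound of 3.93-fold rests partly on measured female signal. sunz ranged over 91.9 to 220 in males and 0.839 to 7.48 in females, with a bound of 2.63-fold. sa ranged over 73.5 to 213 in males and 1.95 to 35.0 in females, with a bound of 2.33-fold. can, at 31.2 to 114 in males and 0.513 to 21.2 in females, was close to 50 even in males, and its bound was 1.10-fold. These values are ordered by bound, which depends on how far a probe set lies above 50, and say nothing of the relative abundance of the transcripts.

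**Figure D1:**
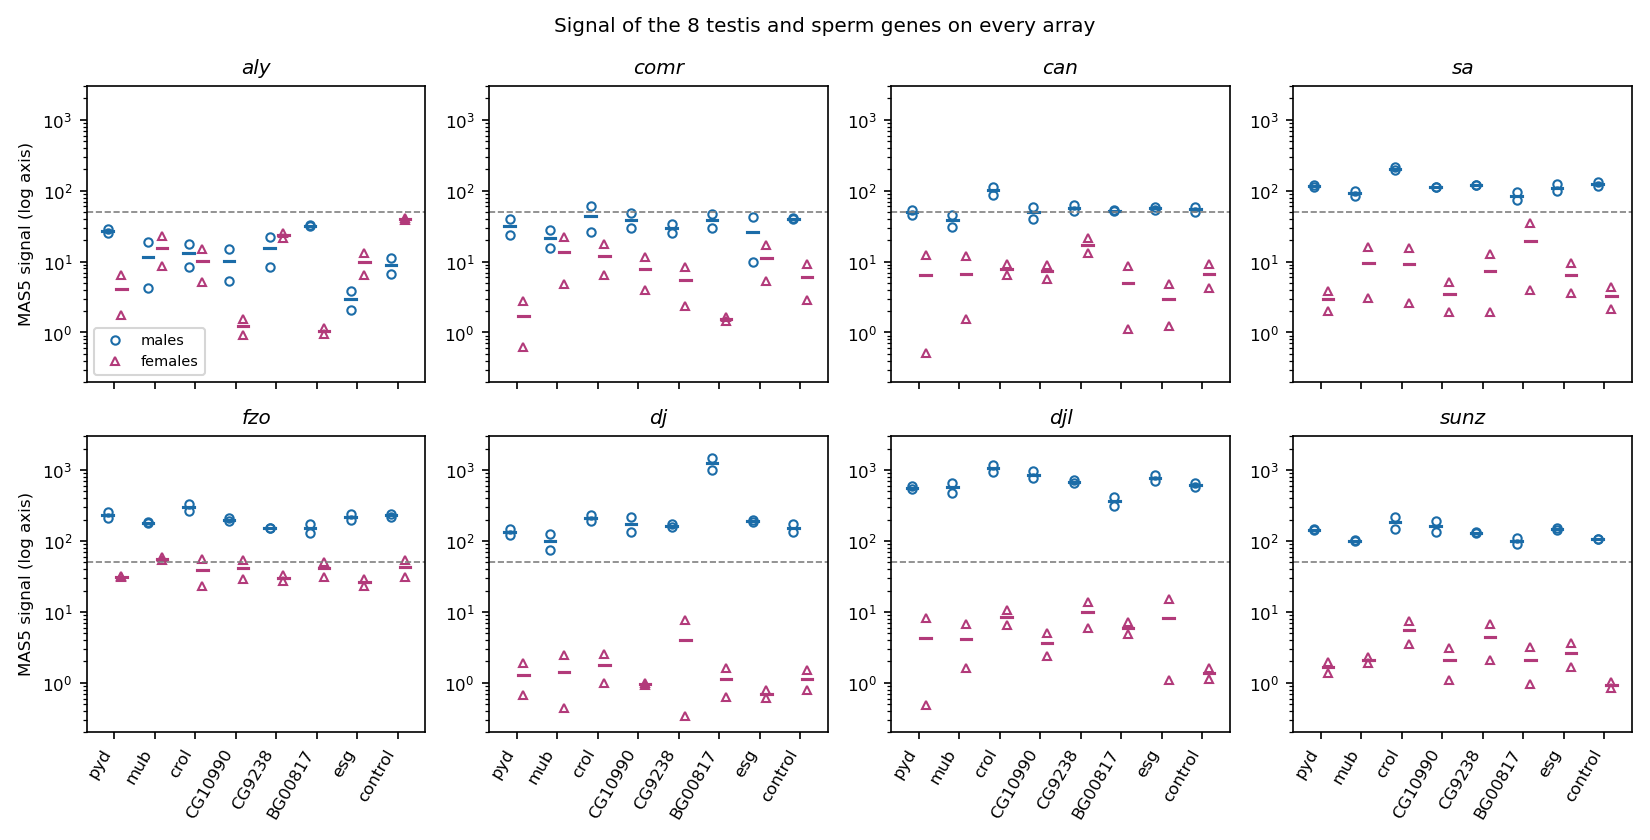
MAS5 signal (log axis) of the 8 genes on every array, by line, with males (circles) left of females (triangles) and a bar at the mean of the 2 arrays; the dashed line marks 50. dj stands at 993 and 1500 in BG00817 males and at or under 235 on every other male array, and aly stays under 50 on every array of both sexes.

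Relatives, working in most cells, of these genes and of other tMAC and tTAF genes did not share the pattern. Of 8 such genes on the list, none was higher in males and 6 were lower in males (called at 0.001, where 37.9% of all tested probe sets were), with a median difference of -1.14 on the log2 scale, against 0.20 over all tested probe sets. Taf5, the relative of can, was lower in males, with a difference of -1.57 (male signals 159 to 232 and female signals of up to 755), as was Taf8, the relative of sa, with -2.11 (96.6 to 162 in males and up to 626 in females). mip130 and mip120, which belong to the related complex of other tissues, were lower in males with differences of -1.73 and -2.87, and Taf6 and Taf12 with -0.70 and -0.32. Marf, the mitofusin of other tissues and the relative of fzo, differed by 0.16 and Taf4 by 0.08, and neither was called. In males none of the 8 passed the genotype test at 0.05.

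Among the 8 lines, each of the 6 genes varied in males at the 0.05 level after adjustment (limma F-test over the 16 male arrays), as did 27.3% of all tested probe sets. At 0.001, the level that the study's methods use, 1 of the 6 was called, dj (adjusted p = 6.02e-04), against 1.69% of all tested probe sets. The other adjusted p-values were 0.00615 for sa, 0.00836 for djl, 0.0192 for fzo, 0.0266 for can and 0.0383 for sunz. The call for dj depended on the arrays used, since its adjusted p lay between 7.50e-04 and 0.00633 when single arrays were left out and was above 0.001 for 12 of the 16. None of the 6 was called among lines in females (lowest adjusted p = 0.269, while 23.5% of all tested probe sets passed 0.05), where all but fzo were under 50 on every array. The line by sex F-test called none of them (lowest adjusted p = 0.235, where 14.6% of all tested probe sets passed 0.05 and 0.591% passed 0.001), but it called 1 with log2(signal + 50) and 2 by analysis of variance on untransformed signal. For the 5 genes with female signals under 50, whose differences among females have no order, this test says little. In whole bodies, fewer cells of the germ line and less RNA in each of them cannot be told apart.

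Line by line, 5 differences from the control passed an adjusted p of 0.05, all of them increases: 4 of the 6 genes in crol males and dj in BG00817 males. Over all tested probe sets, 7.72% were higher in crol males and 5.18% lower, and 2.89% were higher in BG00817 males and 2.71% lower. None of the 6 was called in males of the other 5 lines. There the shares of all tested probe sets called higher and lower were 4.23% and 4.56% in pyd, 0.679% and 0.615% in mub, 1.48% and 1.41% in CG10990, 1.49% and 1.36% in CG9238 and 0.551% and 0.671% in esg.

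**Figure D2:**
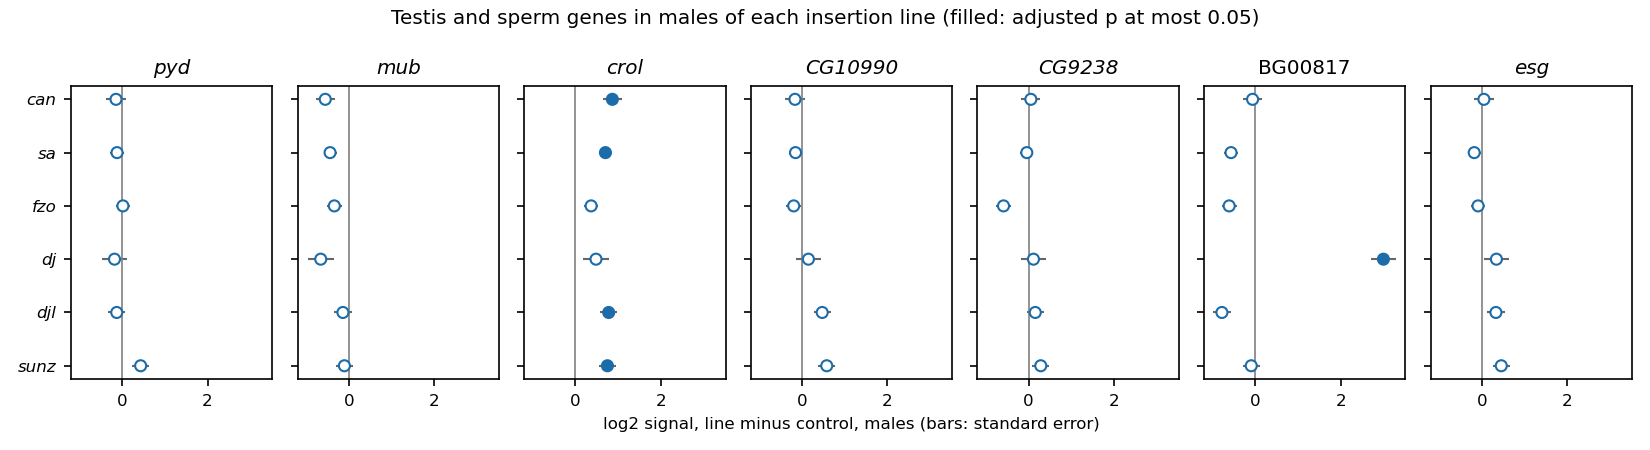
Difference in log2 signal between males of each insertion line and control males for the 6 tested genes (points, with bars of 1 standard error from the fit); filled points passed an adjusted p of 0.05. The filled points are can, sa, djl and sunz in crol and dj in BG00817, at 3.0, and all 6 points of mub lie below 0.

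For the regulators, the tMAC genes gave little signal. aly stood at 31.3 and 32.5 in BG00817 males, at 17.9 and 8.52 in crol males and at 6.63 and 11.3 in control males, all under the level at which signals were ordered. comr stood at 26.2 and 60.9 in crol males and at 41.3 and 39.7 in control males, and its female signals reached at most 22.2. No fold is given for either. Of the 6 other tMAC genes on the list, all were tested, 4 were higher in males and 1, mip40, named after its value was seen, was lower. By the genotype test in males 1 of the 6 passed 0.05. This was tomb (tombola), a partner of Aly, with 97.7 and 120 in crol males and 66.7 and 70.8 in control males (adjusted p = 0.0977 for crol). In crol males the 6 had a median difference of 0.59 on the log2 scale, and 1 of them, vis (vismay), a homeodomain subunit named here after its value was seen, was called higher (223 and 310 in crol males, 136 and 130 in control males, a difference of 0.98, adjusted p = 0.0499).

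The tTAF genes can and sa were highest in crol. sa stood at 193 and 213 in crol males and at 133 and 117 in control males, a difference of 0.70 ± 0.15 on the log2 scale (SE, adjusted p = 0.0207). The 2 crol arrays lay above the other 14 male arrays, which ranged over 73.5 to 133. can stood at 87.8 and 114 in crol males and at 50.7 and 59.2 in control males, a difference of 0.87 ± 0.22 (adjusted p = 0.0341), again above every other male array. At the low end, sa stood at 73.5 and 96.6 in BG00817 males (-0.56 ± 0.15, adjusted p = 0.0624) and at 84.9 and 99.9 in mub males (-0.44, adjusted p = 0.237). can was under 50 on both mub arrays, at 31.2 and 45.0 (adjusted p = 0.316). In the order of line means, crol was separated from its neighbour for both genes, and the lines between crol and mub could not be ordered for can, since their arrays overlapped step by step.

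Of the other tTAFs, mia (meiosis I arrest, a relative of Taf6) and nht (no hitter, a relative of Taf4) were tested. mia varied among male lines (adjusted p = 0.00434) and was lower in BG00817, at 168 and 153 against 255 and 249 in control males (-0.65, adjusted p = 0.00785), while in crol it stood at 227 and 260 (-0.05, adjusted p = 0.792). Unlike can and sa, mia was above 50 on all 16 female arrays. nht, named after its value was seen, differed by 1.01 in crol and was not called (adjusted p = 0.345). In crol males the general factors Taf5 and Taf8, relatives of can and sa, differed by 0.05 and -0.14, and the 8 broadly expressed relatives had a median difference of -0.12, with none called in either direction.

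The spermatid gene fzo was also highest in crol. It stood at 264 and 333 in crol males and at 218 and 242 in control males (0.37 ± 0.17, adjusted p = 0.180), so that the groups did not overlap and the difference was not called. At the low end it stood at 130 and 174 in BG00817 males (-0.61 ± 0.17, adjusted p = 0.0702) and at 154 and 152 in CG9238 males (-0.59, adjusted p = 0.123). None of the 5 tested genes of mitochondrial fusion, fission and upkeep in other cells varied among male lines at 0.05, and their median difference was -0.03 in crol and -0.02 in BG00817. Marf differed by -0.06 in crol and -0.05 in BG00817.

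The sperm-tail gene dj gave the largest difference among the 6 tested genes. It stood at 993 and 1500 in BG00817 males and at 173 and 134 in control males, which was 8.01-fold higher, or 3.0 ± 0.30 on the log2 scale (SE, adjusted p = 4.71e-04). The other 12 male arrays ranged over 74.0 to 235, so that only the 2 BG00817 arrays were out of the common range. Of 12518 differences in BG00817 males, that of dj ranked 26th from the highest. In BG00817 females dj was at 0.623 and 1.64, as low as in the other females. With single arrays left out the difference stayed between 2.70 and 3.30 and its adjusted p at or under 0.00796. In 1 fit of all 32 arrays, whose spread also takes in the female signals under 50, the adjusted p was 0.0955. In the remaining order of line means, from crol (193 and 235) to mub (127 and 74.0), neighbouring lines overlapped at every step.

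djl, next to dj in gene order, was not raised in the same males. It stood at 310 and 420 in BG00817 males and at 661 and 579 in control males, a difference of -0.78 ± 0.20 that was not called (adjusted p = 0.0543). Both BG00817 arrays were lower than the other 14 male arrays, which ranged over 482 to 1185. Set against the mean of the other 7 lines, a comparison chosen after the data were seen, djl was lower, with a difference of -0.99 (adjusted p = 0.00314), as were sa with -0.53 (adjusted p = 0.0160) and fzo with -0.49 (adjusted p = 0.0365). Without BG00817 male replicate 2, all 3 were lower than the control (adjusted p = 0.0494 for djl, 0.0384 for sa and 0.0481 for fzo). Without BG00817 male replicate 1, none of the 3 was called (adjusted p = 0.309 for djl, 0.353 for sa and 0.379 for fzo), with differences of -0.56, -0.37 and -0.40. djl was highest in crol males, at 954 and 1185 (0.78 ± 0.20, adjusted p = 0.0349), while dj at 193 and 235 was 0.48 ± 0.30 above the control there and was not called (adjusted p = 0.316). Across the 8 male line means, Pearson's r between dj and djl was -0.53, while that between djl and the other 4 tested genes ranged over 0.58 to 0.83 and that between can and sa was 0.87. These correlations are descriptions over 8 means of the same arrays.

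Around dj, 12 neighbouring genes in the RefSeq order of the arm had a tested probe set of their own, and none was called in BG00817 males. These genes were chosen by the position of dj and not by that of the insertion, whose band was not set against dj. Their differences ranged over -0.78, for djl, to 0.28, for CG1105 (770 and 795 in BG00817 males, 642 and 642 in control males, adjusted p = 0.165). On the other side of dj, CG1979 differed by -0.37 (adjusted p = 0.246) and Sodh1, a sorbitol dehydrogenase, by 0.07 (adjusted p = 0.777). Mst84B, a male-specific transcript and the next gene after djl, stood at 602 and 803 in BG00817 males and at 878 and 658 in control males.

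**Figure D3:**
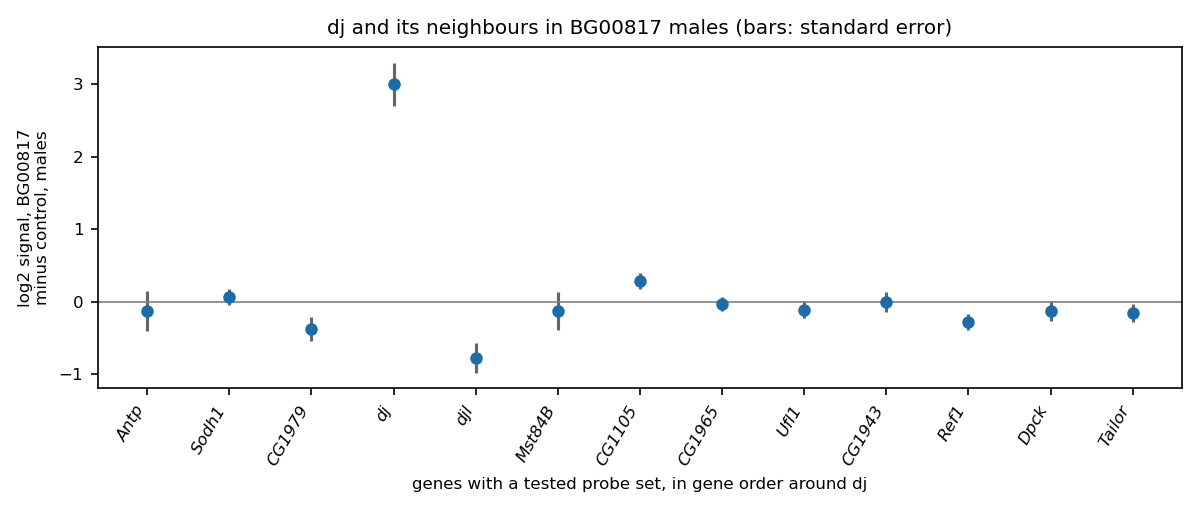
Difference in log2 signal between BG00817 males and control males for dj and the 12 genes around it with a tested probe set, in gene order and not to scale in distance (points, with bars of 1 standard error). dj lies at 3.0 and all the neighbours between -0.78 and 0.28.

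Other sperm genes were examined beside dj. Of 16 tested genes of the sperm nucleus and tail, 15 were higher in males and 7 varied among male lines at 0.05. In BG00817 males 1 of the 16 was called, Tpl94D, a chromatin protein of the transition between histones and protamines, at 159 and 214 against 41.5 and 32.6 in control males, which is at least 3.69-fold higher (adjusted p = 0.0133). It was likewise at 245 and 157 in CG9238 males, at least 3.92-fold higher than in the control (adjusted p = 0.0163), while dj was at 158 and 172 there. The median over the 16 was -0.15 in BG00817 and 0.68 in crol. In crol males 6 of the 16 were called higher and none lower. Among these, ocn stood at 7108 and 8599 in crol males and at 5013 and 4709 in control males (0.69, adjusted p = 0.0232), and the protamine ProtB at 1139 and 1678 in crol males and at 873 and 664 in control males (0.86, adjusted p = 0.0356). Porin2, a testis form of the mitochondrial channel, differed by 0.61 and was not called (adjusted p = 0.0571). Of 8 listed sperm leucyl aminopeptidases, abundant proteins of the sperm tail, 4 were tested. All 4 had both crol arrays above both control arrays, where 27% of all tested probe sets did. Of these, S-Lap7 (0.66, adjusted p = 0.0395) and S-Lap8 (0.72, adjusted p = 0.0347) were called.

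The post-meiotic gene sunz stood at 148 and 220 in crol males and at 108 and 107 in control males (0.75 ± 0.20, adjusted p = 0.0361). The lower of the crol arrays lay inside the range of CG10990 (134 and 193) and esg (142 and 153), so that crol was not separated from its neighbours in the order of line means. CG10990 differed by 0.58 (adjusted p = 0.184) and esg by 0.46 (adjusted p = 0.489). BG00817, at 91.9 and 111, overlapped both mub (102 and 98.5) and the control and could not be ordered against either. Of 14 other comet and cup genes tested, which share with sunz transcription after meiosis, all were higher in males, and in crol 4 were called higher, d-cup, wa-cup, sowi and, named after its value was seen, m-cup. wa-cup stood at 630 and 736 in crol males and at 428 and 335 in control males (0.85, adjusted p = 0.0290), and d-cup at 210 and 247 in crol males and at 117 and 141 in control males (0.83, adjusted p = 0.0160). c-cup differed by 0.59 and was not called (adjusted p = 0.0686). The median of the 14 was 0.57 in crol and -0.33 in BG00817, where s-cup, named after its value was seen, was called lower (-1.06, adjusted p = 0.0463).

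In crol, all 6 tested genes thus had both male arrays above both control arrays, where 27% of all tested probe sets did, and their median difference was 0.73 on the log2 scale, against -0.05 over all tested probe sets. Counts of calls in the related lists differed with the list. Of 10 testis-specific proteasome subunits, 6 were higher in crol and none lower, with a median of 0.89, and Prosbeta5R2 was the highest of them, at 140 and 138 in crol males and at 60.4 and 54.9 in control males (1.27, adjusted p = 0.0113). Prosalpha6T differed by 1.01 (adjusted p = 0.0171), Prosbeta4R1 by 0.99 (adjusted p = 0.0207) and Prosbeta2R2 by 0.60 (adjusted p = 0.0394). Of 7 spermatocyte and meiosis genes 2 were higher, bol (boule), which the meiotic entry of spermatocytes needs (1276 and 1491 in crol males, 925 and 804 in control males, 0.68, adjusted p = 0.0332) and Rbp4, an RNA-binding protein of spermatocytes (0.90, adjusted p = 0.0113). bam and twe, which act in both germ lines and were lower in males than in females, differed by -0.59 and 0.02 in crol and were not called.

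The increase in crol was also counted over 1915 probe sets that the sex contrast called higher in males and that stayed under 50 on every female array. This set was chosen from these arrays and holds 5 of the 6 genes, all but fzo. By its rule it is not limited to testis genes. A probe set could pass the filter through crol males alone, and how many did was not counted. In crol males 627 of them were higher and 26 lower than in the control, with a median of 0.68, and 1491 had both crol arrays above both control arrays. The corresponding counts were 18 higher and 60 lower in BG00817 (median -0.28), 7 and 10 in mub (median -0.28) and 41 and 7 in CG10990 (median 0.23). They were 38 and 38 in pyd (median -0.07), 25 and 9 in CG9238 (median 0.05) and 6 and 7 in esg (median 0.15). These calls rest on few arrays. Of the 4 calls among the 6 genes in crol, none was left without control male replicate 1, control male replicate 2 or crol male replicate 2, and 2 without either CG9238 male, and the count of 627 fell to 243, 19 and 27 without the first 3 of these arrays. None of the 4 was called with no filter on signal, with all 32 arrays in 1 fit or with the 4 arrays of crol and the control alone. The call of sunz was also lost without either mub male (adjusted p = 0.0509) or either esg male (adjusted p = 0.0526).

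**Figure D4:**
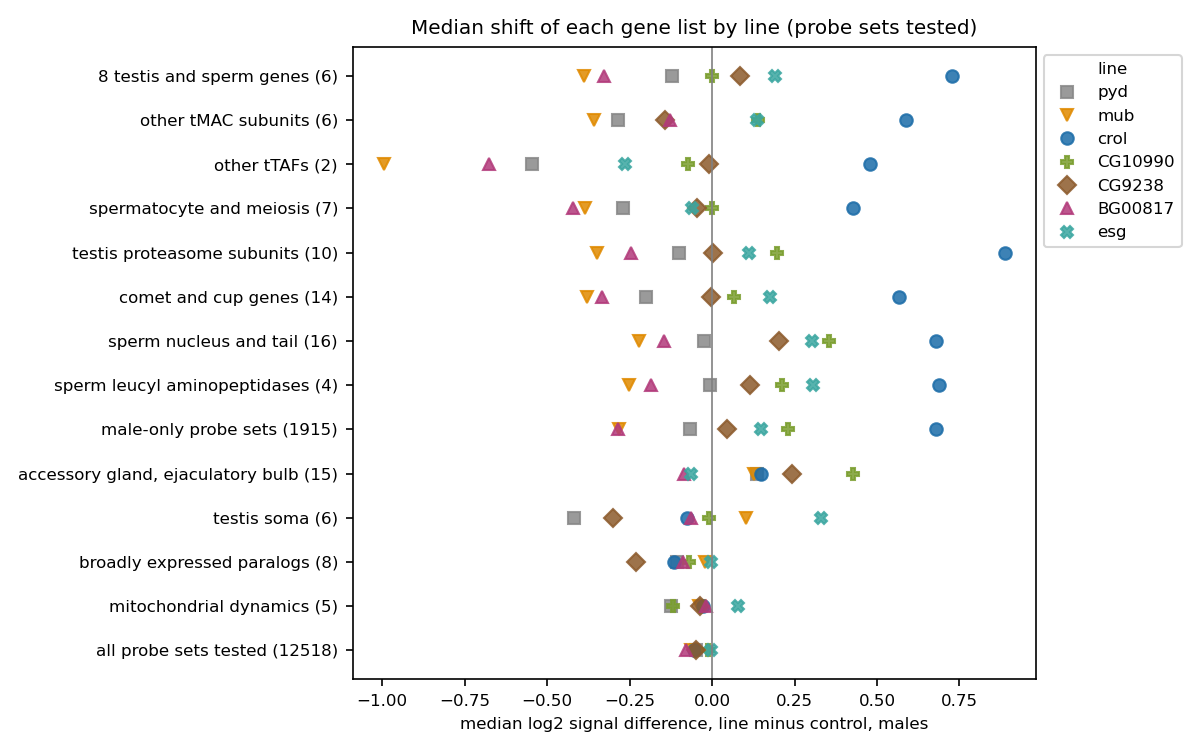
Median difference in log2 signal between males of each insertion line and control males for the 8 genes (the 6 tested), related gene lists and all tested probe sets, with the number of probe sets in brackets. crol (filled circles) lies highest in each list of germ line genes, at 0.73 for the 6 genes, and near the other lines for the lists of other tissues.

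Markers of other tissues were counted in the same males. Of 15 tested accessory gland and ejaculatory bulb genes 2 were higher in crol males and none lower, with a median of 0.15. These were Dup99B, a relative of the sex peptide (5442 and 5992 in crol males, 3951 and 3740 in control males, 0.57, adjusted p = 0.00697) and Acp62F, a protease inhibitor (0.74, adjusted p = 0.0105). Acp63F and Acp76A differed by -0.05 and 0.21. The summed signal of that list was 95782 and 91947 in crol males, 77659 and 82115 in BG00817 males and 81635 and 83989 in control males, and over all male arrays it ranged over 77659 to 111023. Of 6 genes of the somatic cells of the testis none was called in crol, and the 2 that varied among male lines at 0.05, hh and eya, differed there by -0.39 and 0.32. These somatic genes also have signal in females and do not mark the testis alone. The summed signal of the ovary list was 1281 and 2964 in crol males, 1741 and 1764 in BG00817 males and 4246 and 2774 in control males, against 85883 to 155113 in females, and in crol 1 of 13 ovary genes was called, grk, which was lower (767 and 722 in crol males, 1167 and 1130 in control males, adjusted p = 0.0195) and whose probe set was brighter in males than in females. For the array's control probe sets, the log2 of the 3' over the 5' signal, a measure of RNA quality, was 1.22 and 1.55 in crol males, 1.91 and 1.95 in BG00817 males and 1.52 and 1.96 in control males. The part of these measures in the results was not tested.

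In mub, all 6 tested genes had negative differences and none was called. The median was -0.39, and 5 of the 6 had both mub arrays below both control arrays, where 33.8% of all tested probe sets did. dj stood at 127 and 74.0 in mub males and at 173 and 134 in control males (-0.65, adjusted p = 0.367), and sunz at 102 and 98.5 in mub males and at 108 and 107 in control males (-0.10, adjusted p = 0.859). The list medians of the testis were also negative in mub, -0.35 for the proteasome subunits, -0.38 for the comet and cup genes and -0.22 for the sperm nucleus and tail, and no gene of these lists was called there in either direction. In BG00817 the median of the 6 genes was -0.33, although dj rose, and the spermatocyte gene bol was called lower (464 and 618 in BG00817 males, 925 and 804 in control males, -0.69, adjusted p = 0.0482).

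Among the 6 genes, the remaining lines gave mixed signs. In CG10990 the 6 differences ran from -0.19, for fzo, to 0.58, for sunz, with a median of 0.00. In CG9238 they ran from -0.59, for fzo, to 0.29, for sunz, with a median of 0.08, in esg from -0.18, for sa, to 0.46, for sunz, with a median of 0.19, and in pyd from -0.18, for dj, to 0.43, for sunz, with a median of -0.12. Within each of pyd, CG10990, CG9238 and esg, sunz thus had the highest difference among the 6 genes, and in none of these lines was it called. The median of the sperm nucleus and tail list was 0.35 in CG10990, 0.30 in esg, 0.20 in CG9238 and -0.03 in pyd. In the same order of lines, the medians were 0.20, 0.11, 0.003 and -0.10 for the testis proteasome subunits. They were 0.07, 0.18, -0.004 and -0.20 for the comet and cup genes, and -0.01, -0.004, -0.05 and -0.05 over all tested probe sets.

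Genes with a like pattern across the 8 male line means were found by Pearson's r, with no test, since the points share arrays and scaling. Most like the mean of the 6 genes were tilB (r = 0.98), CG18545 (0.98), CG9592 (0.97), DnaJ-H (0.97) and CG12914 (0.97). That mean includes dj, which raised it in BG00817, where the matches differed from the control by 0.02 to 0.22. DnaJ-H was not limited to males, with signals of up to 1563 in males and 1466 in females, and was not called in crol (0.28, adjusted p = 0.127). The average male signal of tilB was 232 in crol and 117 in the control, a difference that was not called (0.98, adjusted p = 0.0614). Most like djl, a gene added to this search after the values were seen, were CG10164 (r = 0.99) and CG13405 (0.98). CG13405 averaged 499 in crol males (1.11, adjusted p = 0.0113), 92.8 in BG00817 males (-1.31, adjusted p = 0.00535) and 231 in control males. Most like fzo were CG17122 (0.96) and CG14441 (0.96). Most like dj were Idi, an enzyme of isoprenoid synthesis, and CG13053 (both 0.98), and in each case the likeness rests on BG00817. CG13053 stood at 79.8 and 99.8 in BG00817 males and at 6.13 and 6.29 in control males, at least 1.79-fold higher. Its control signals lay under 50 and have no order, so its r is a description and no support for dj. Idi averaged 676 in BG00817 males and 433 in control males (0.64, adjusted p = 0.143). For aly no search was made, since its signals had no order.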

How the data were processed

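Total RNA of whole flies was hybridised to Affymetrix Drosophila Genome 2.0 arrays, 1 pool of flies per array. The 2 pools of a line and sex were drawn from flies collected together, so that p-values measure only the spread between these samples. The authors made the deposited values, a linear intensity per probe set, with MAS5 (version not given in the sources used here) and scaled each array. A median of 500 is named as the target in the methods, while the trimmed mean of each array is 500. No depth applies to arrays, and precision is limited by their number.

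Of 18952 probe sets, 183 array controls were left out and 12518 passed the filter on signal, 11072 with 1 gene symbol, 342 with several and 1104 with none. Symbols came from the platform annotation and the RefSeq gene table (Release 6 plus ISO1 MT). log2 intensity was fitted in R 4.3.3 with limma 3.58.1 and Benjamini-Hochberg adjustment over all 12518. The 16 male arrays (8 residual degrees of freedom, prior 2.28) gave the genotype F-test, called at 0.001, and each line minus control, called at 0.05. All 32 arrays (16 residual degrees of freedom, prior 1.72) gave male minus female and line by sex, called at 0.001. For folds given as bounds, signals under 50 in the lower group were raised to 50 before the means of log2 signal were compared, and the fold is a lower bound. The fits used all signals as deposited, also those under 50, so a p-value beside a bound is not a test of the bound. The steps were tested on simulated data. Alternatives were quantile and median scaling, no filter and a filter of 100, log2(signal + 50), an intensity trend, a replicate block, analysis of variance on untransformed signal, other sets of arrays and each array left out.

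The genes and lists were chosen with earlier results of these data known. Named genes were the 8 genes, the broadly expressed relatives of these and of other tMAC and tTAF genes, and the insertion genes. Also named were up to 4 genes of each other list with the smallest genotype p in males among those passing 0.05. The genes most like the mean of the 6, dj, fzo or aly were named as well. Tissue markers (ocn, osk and Yp1), the neighbours of dj and genes said to be named after their values were seen are outside this rule. Lists were described by counts and medians, with no test. No probe set of a list of Y-linked sperm genes passed the filter. Each probe set that passed the filter was tested, and for the insertion genes each tested one is given. In the counts and medians of the other lists, 1 probe set stood for each gene. The 7 spermatocyte and meiosis genes, for example, had 9 probe sets. Values and calls of genes with several, such as bol, s-cup, r-cup, Taf4 and osk, therefore rest on 1 of them. Their other probe sets are not described.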

Additional observations from a re-analysis of the deposited data

How the results depend on the processing

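The call of dj in BG00817 was lost in 1 of 11 alternative settings. The other calls moved with the setting. With quantile scaling, 3 gene-by-line calls were left of 5, 2 of 4 in crol, and the median of the 6 genes in BG00817 was -0.18. With no filter, the genotype test in males called 0 of the 6 genes and 76 probe sets in all, in place of 1 and 211, 1 gene-by-line call was left, 0 in crol, and 133 male-only probe sets (the 1915 described above) were higher in crol, in place of 627. A filter of 100, log2(signal + 50), the intensity trend and the replicate block each gave 2 calls in BG00817, dj and djl, in place of 1. log2(signal + 50) called 453 probe sets in the genotype test and 1 gene in the line by sex test, the intensity trend called 590 probe sets, and analysis of variance on untransformed signal called 0 of the 6 genes and 93 probe sets, with 2 genes in the line by sex test. All 32 arrays in 1 fit left 0 calls, 0 in crol and 0 in BG00817, and 8 male-only probe sets higher in crol, and the 4 arrays of a line and the control alone left 1 call, 0 in crol and 13 male-only probe sets. Against the mean of the other 7 lines, chosen after the data were seen, there were 10 calls, 4 of them in BG00817, and 1195 male-only probe sets were higher in crol. List medians near 0 had no stable sign. That of the male-only probe sets in pyd was -0.07, but 0.01 with quantile scaling and 0.03 with median scaling, and that of the 6 genes in CG10990 was 0.00, but -0.04 against the mean of the other 7 lines. The cause of these changes was not tested. Fits with fewer arrays have fewer residual degrees of freedom, while the fit of all 32 arrays has more than the male fit. The spread in the fit of all 32 arrays also takes in female signals, which for all tested genes but fzo were under 50 on every array. The part of these signals in the lost calls was not tested.

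With single arrays left out, the genotype test in males called 0 to 1 of the 6 genes and 104 to 226 probe sets, calls over the 7 lines numbered 1 to 8, 0 to 4 in crol and 1 to 4 in BG00817, and male-only probe sets higher in crol numbered 19 to 726. The median of the 6 genes was 0.55 to 0.86 in crol and -0.49 to -0.23 in BG00817, and that of the male-only probe sets -0.45 to -0.11 in BG00817. A lone array was assumed to vary like the other groups. Replicate numbers were not treated as pairs in the main fits. The correlations of same-numbered deviations ranged over -0.14 to 0.24 for 120 pairs of groups (median -0.01). Of these, 28 were pairs of male groups, with the same range and median, and they held all 7 pairs over 0.1. A shared effect of replicate number in males was not tested beyond the replicate block. With the replicate block the genotype test called 0 of the 6 genes (dj, adjusted p = 0.00139), and beside that and djl in BG00817 it changed no other call among the values followed. Signal over background limits aly, comr and can, which passed the filter in 5 of 8 male groups.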
